A study of Mus musculus with 9 samples.

Results

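The S100 genes encode small calcium-binding proteins, and 10 of them (S100a1, S100a4, S100a6, S100a8, S100a9, S100a10, S100a11, S100a13, S100a16 and S100b) were read among the 19937 named genes of an array study of mouse brain microglia and spleen monocytes. The members were taken by gene symbol from probe sets (groups of array probes summarised as 1 value) annotated to a single gene, with the brightest probe set by its mean over 9 arrays where a gene had several. All 10 were measured. Wild type C57BL/6 mice were used throughout, and their age and sex are not stated in the sources used here. Brain leukocytes were recovered from perfused, enzyme-digested brains on a Percoll gradient and sorted by staining for MHC II, Ly6C, the macrophage antigen EMR1, CD11b and CD45. The 3 groups of 3 arrays each were Ly6C-high microglia (given the cell type MgSCs in the labels), Ly6C-low microglia (called bulk microglia there) and spleen monocytes, for which the labels give no Ly6C level and the protocol describes no separate spleen preparation. No group carried a transgene or received a treatment according to the labels. Separate or pooled animals are not told apart in them, and the p-values therefore reflect only how far these samples scatter, which could be technical.

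S100 proteins carry a pair of EF-hands, helix-loop-helix motifs that bind calcium, and most work as dimers that change shape with calcium and then bind other proteins. Some act inside the cell on the cytoskeleton and on annexins, which are calcium-dependent membrane-binding proteins, and some are also released and act on receptors such as Tlr4 and Ager (RAGE). In blood, S100a8 and S100a9 form calprotectin, the abundant cytosolic complex of neutrophils and monocytes, and in brain S100b is best known from astrocytes. Of the 10 members 9 lie on mouse chromosome 3 and S100b lies on chromosome 10, by the RefSeq gene table of GRCm38.p6. On chromosome 3 the genes S100a1, S100a13, S100a16, S100a4, S100a6, S100a8 and S100a9 follow each other with only other S100 genes between them, and S100a11 and S100a10 form a neighbouring pair with 56 other protein-coding genes between it and that run.

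The 250 bases upstream of the annotated start are shown for S100a8 and S100a9, whose values ran together on the arrays, and for S100a4 and S100a6, which differed most between Ly6C-low microglia and monocytes. They are from RefSeq, build GRCm38.p6, written 5′ to 3′ towards the gene, with TATAAA (the TATA box core) and TTNNGNAA (a C/EBP-like pattern) on either strand in capitals.
S100a8, chr3:90668821-90669070, plus strand: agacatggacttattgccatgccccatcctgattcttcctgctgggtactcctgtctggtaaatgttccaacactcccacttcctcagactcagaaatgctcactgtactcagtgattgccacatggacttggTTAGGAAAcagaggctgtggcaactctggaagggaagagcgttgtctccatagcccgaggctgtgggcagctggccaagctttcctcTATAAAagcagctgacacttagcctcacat
S100a9, chr3:90695722-90695971, minus strand: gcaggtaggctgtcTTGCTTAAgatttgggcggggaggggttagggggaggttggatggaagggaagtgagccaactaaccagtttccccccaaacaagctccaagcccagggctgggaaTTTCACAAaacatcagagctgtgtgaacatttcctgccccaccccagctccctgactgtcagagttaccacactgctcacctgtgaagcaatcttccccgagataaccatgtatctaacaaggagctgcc
S100a4, chr3:90603520-90603769, plus strand: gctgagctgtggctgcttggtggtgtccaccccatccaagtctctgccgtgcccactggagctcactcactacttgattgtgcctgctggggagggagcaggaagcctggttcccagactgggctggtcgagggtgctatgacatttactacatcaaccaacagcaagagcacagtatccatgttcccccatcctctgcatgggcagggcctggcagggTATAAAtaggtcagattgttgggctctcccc
S100a6, chr3:90612644-90612893, plus strand: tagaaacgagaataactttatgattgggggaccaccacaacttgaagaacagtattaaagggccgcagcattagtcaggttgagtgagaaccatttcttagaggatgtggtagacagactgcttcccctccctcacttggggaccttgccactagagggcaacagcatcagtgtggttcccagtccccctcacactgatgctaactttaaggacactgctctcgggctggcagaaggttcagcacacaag
The S100a8 sequence holds TATAAA starting 30 bases and TTNNGNAA starting 117 bases before the start, S100a9 holds TTNNGNAA at 236 and 130 bases, S100a4 holds TATAAA at 31 bases, and S100a6 holds neither. Promoters were matched for 9 members, all but S100a10. TATAAA and TTNNGNAA were each found in 2 of 9 members, against 12.4% and 36.8% of 32851 RefSeq promoters of the same length. The other letters searched on both strands, with no overlap removed, were TGANTCA (AP-1; 2 of 9 members, 6.75% of promoters), GGGCGG (GC box; 3 of 9, 32.7%), GAGGAA (part of a PU.1 site; 3 of 9, 23.3%) and CANNTG (E-box; 7 of 9, 66.2%). S100a16 has 2 promoters and counts once where either matched (TGANTCA and GGGCGG in the second alone, GAGGAA in the first alone), whereas the percentages count single promoters. These are matches of letters, not binding sites.

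Before the S100 values, the arrays were checked against marker lists, with levels given as the mean log2 intensity of a list on an array. The Ly6C-high replicates scattered most, with a median SD per gene of 0.27 against 0.14 in Ly6C-low microglia and 0.11 in monocytes. Of 16 brain endothelium genes 16 were higher in Ly6C-high than in Ly6C-low microglia, with list means of 10.4 to 10.9 in Ly6C-high, 5.94 to 7.31 in Ly6C-low and 5.91 to 5.99 in monocyte arrays, and of 14 homeostatic microglia genes 14 were lower, with 8.34 to 9.01, 10.9 to 11.3 and 7.37 to 7.41. Tmem119, a defining microglia marker, stood at 8.23, 8.47 and 9.32 in Ly6C-high and at 11.58, 12.06 and 12.18 in Ly6C-low arrays, with 6.04 to 6.46 in monocytes. Of the single arrays, Ly6C-high replicate 2 had a classical monocyte list mean (13 genes) of 9.27, with 6.55 and 5.93 in replicates 1 and 3, 5.85 to 6.45 in Ly6C-low and 9.97 to 10.5 in monocyte arrays. Ly6C-low replicate 3 had a neutrophil list mean (15 genes) of 8.02, with 6.00 and 6.17 in replicates 1 and 2, 5.75 to 6.94 in Ly6C-high and 8.92 to 9.78 in monocyte arrays. The neutrophil and classical monocyte lists share the gene Chil3. B cell genes had list means of 5.34 to 5.94 in the brain sorts and 8.12 to 8.82 in monocyte arrays, and T and NK cell genes 5.23 to 5.76 in the brain sorts and 7.71 to 8.40 in monocyte arrays. Array values do not tell fewer cells of a type from less RNA per cell. Results that rest on Ly6C-high replicate 2 or Ly6C-low replicate 3 are therefore given with and without them.

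Each comparison was tested with limma's moderated test over all 19937 genes with Benjamini-Hochberg adjustment, two-sided, and a gene was called at an adjusted p under 0.05. Log2 fold changes are the first group named minus the second, with their standard error (SE), and levels are mean log2 intensity ± SD over n = 3 arrays. The first comparison sets the Ly6C-high sort against bulk (Ly6C-low) microglia, and there 4 of 10 members were called, all higher (S100a4, S100a10, S100a11 and S100a16), where 15.4% of all genes were called and 4.49% were called higher. Against spleen monocytes, Ly6C-high microglia had 1 member higher (S100a16) and 1 lower (S100a9), where 21.5% of all genes were called, 6.88% higher and 14.6% lower. Without Ly6C-high replicate 2 the members' count against monocytes was 7, with 1 higher and 6 lower, and the share of all genes called was also larger, at 30.6%. Ly6C-low microglia had 5 members lower than monocytes (S100a4, S100a6, S100a10, S100a11 and S100a13) and 1 higher (S100b), where 14.5% of all genes were called, 7.71% lower and 6.80% higher. The median log2 fold change of the 10 members was 1.04, -1.27 and -2.50 in the 3 comparisons in this order, and that of all genes 0.05, 0.09 and 0.05. Of all calls, 29.1% were higher in Ly6C-high than in Ly6C-low microglia, and 40.8% under both quantile and cyclic loess scaling. For Ly6C-high microglia against monocytes the share was 32.0%, with 45.1% under quantile and 43.5% under cyclic loess scaling. The 3 comparisons share arrays in pairs, so they are not independent.

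**Figure D1:**
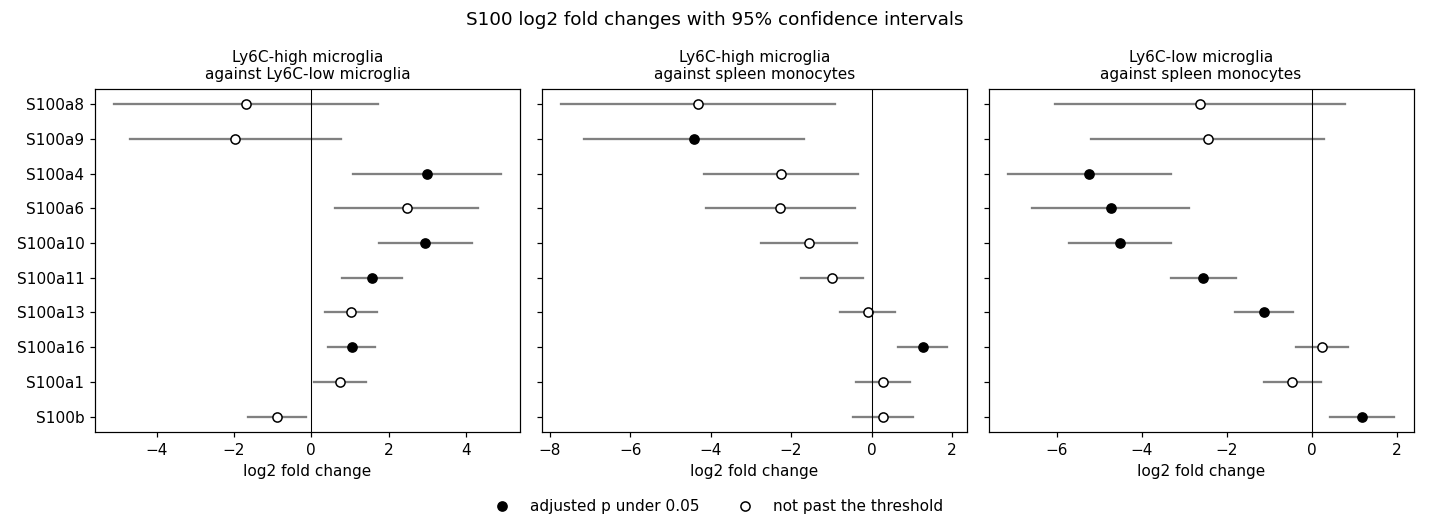
Log2 fold changes (x axis) of the 10 S100 genes (y axis) in the 3 comparisons, 1 panel each. Points are limma estimates from 3 arrays a group, bars their 95% confidence intervals, and filled points passed an adjusted p of 0.05: 4 in the comparison of the microglia sorts, 2 of Ly6C-high microglia against monocytes and 6 of Ly6C-low microglia against monocytes.

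S100a8 and S100a9, the calprotectin subunits, were uniformly high in monocytes and spread widely within both brain sorts. S100a8 had 5.29, 11.75 and 7.93 in Ly6C-high replicates 1 to 3, 8.78, 9.10 and 12.16 in Ly6C-low replicates 1 to 3, and 12.92, 12.54 and 12.47 in monocytes. S100a9 had 6.11, 10.57 and 7.15 in Ly6C-high, 8.56, 9.08 and 12.06 in Ly6C-low and 12.54, 12.32 and 12.21 in monocyte arrays. For both genes the highest Ly6C-high array was replicate 2, the highest Ly6C-low array was replicate 3, and the microglia sorts overlapped each other while both lay below every monocyte array. S100a9 was lower in Ly6C-high microglia than in monocytes, at 7.94 ± 2.33 against 12.36 ± 0.17 (log2 fold change -4.42 ± 1.19 SE, 21.4-fold lower, adjusted p = 0.0318), and S100a8 missed the threshold at 8.33 ± 3.25 against 12.64 ± 0.24 (-4.32 ± 1.49, adjusted p = 0.0721). The S100a9 call ended when any of 5 arrays (Ly6C-high replicates 1 and 3 and each monocyte array) was left out, with log2 fold changes of -3.50 to -4.49 and adjusted p = 0.0780 to 0.0956. Without Ly6C-high replicate 2, S100a8 passed as well (-6.03, adjusted p = 0.0057). Without Ly6C-high replicate 1, which is lowest for both genes, S100a8 moved to -2.80.

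Between the microglia sorts neither calprotectin gene passed, with -1.69 ± 1.49 (adjusted p = 0.486) for S100a8 and -1.96 ± 1.19 (adjusted p = 0.321) for S100a9 in Ly6C-high over Ly6C-low arrays. The 95% interval for S100a8 ran from -5.09 to 1.71, and the value was -0.17 without Ly6C-high replicate 1, -3.40 without Ly6C-high replicate 2 and -0.62 without Ly6C-low replicate 3. Ly6C-low microglia against monocytes gave -2.63 ± 1.49 (adjusted p = 0.335) and -2.45 ± 1.19 (adjusted p = 0.247) for the same genes. With Ly6C-high replicate 2 and Ly6C-low replicate 3 both left out, S100a9 was lower in Ly6C-high than in Ly6C-low microglia (-2.19, adjusted p = 0.0109) and S100a8 was at -2.33 (adjusted p = 0.103). In that fit both genes were lower in Ly6C-low microglia than in monocytes, by -3.70 (S100a8, adjusted p = 0.0172) and -3.53 (S100a9, adjusted p = 0.000998). Leaving out Ly6C-high replicate 2 alone also gave a call for S100a9 between the sorts (-3.27, adjusted p = 0.0447), whereas leaving out Ly6C-low replicate 3 alone gave -0.88 and leaving out Ly6C-high replicate 1 alone gave -1.05. The neutrophil granule gene Camp stood at 10.03 in Ly6C-low replicate 3 and 6.49 and 6.64 in replicates 1 and 2, and at 6.91 to 7.21 in Ly6C-high arrays, with 7.13 in replicate 2. The monocyte chemokine receptor Ccr2 stood at 9.92 in Ly6C-high replicate 2, against 7.62 and 6.20 in its other replicates and 5.88 to 6.91 in Ly6C-low arrays. In the monocyte arrays the neutrophil and classical monocyte list means were higher than on any brain array, at 8.92 to 9.78 and 9.97 to 10.5. The part of these marker genes in the S100a8 and S100a9 values was not tested.

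**Figure D2:**
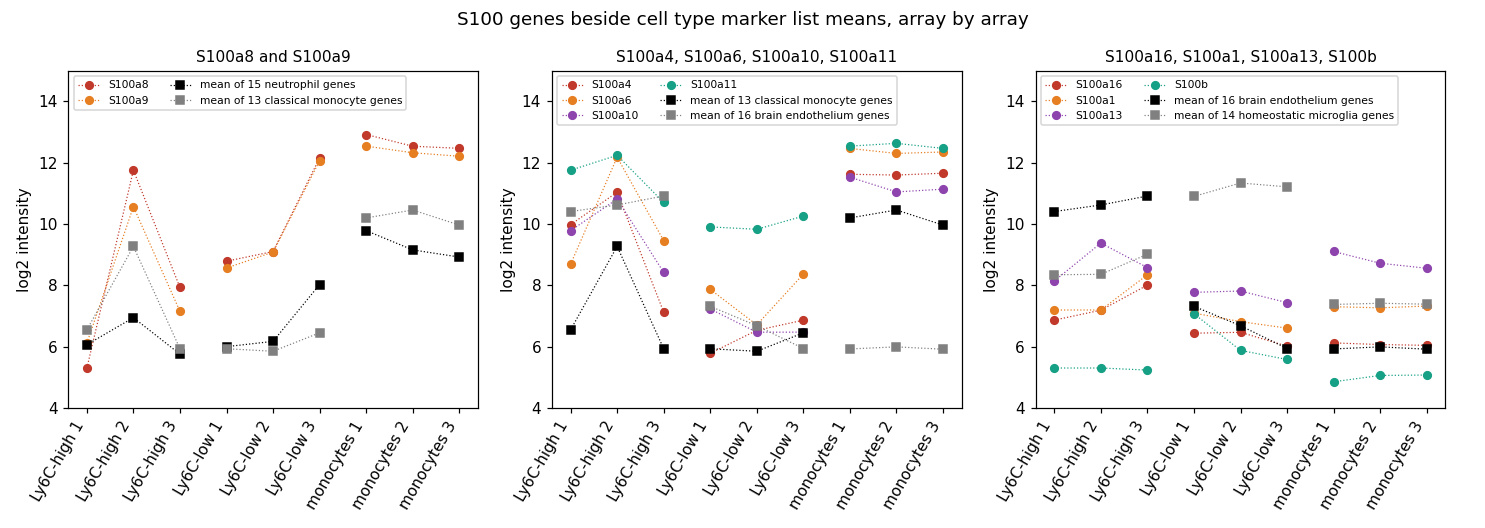
Log2 intensity (y axis) of the S100 genes (circles) and of marker list means (squares) on each of 9 arrays (x axis); dotted lines join the arrays of a group for legibility only, and levels of different genes are not comparable. S100a8 peaks at 11.75 in Ly6C-high replicate 2, where the classical monocyte mean is 9.27, and at 12.16 in Ly6C-low replicate 3, where the neutrophil mean is 8.02.

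S100a4 and S100a6 were low in Ly6C-low microglia, uniformly high in monocytes and spread between in Ly6C-high microglia. S100a4, also called metastasin or FSP1, binds nonmuscle myosin and is linked to cell motility. It had 9.98, 11.04 and 7.12 in Ly6C-high, 5.78, 6.53 and 6.86 in Ly6C-low and 11.62, 11.60 and 11.66 in monocyte arrays, with no overlap between any groups. It was higher in Ly6C-high than in Ly6C-low microglia (9.38 ± 2.02 against 6.39 ± 0.55, log2 fold change 2.99 ± 0.84, 7.93-fold, adjusted p = 0.0448). That call held without Ly6C-high replicate 3 (4.12) and ended when any 1 of the other 8 arrays was left out (2.16 to 3.22, adjusted p = 0.0716 to 0.124), and also under median centring of the arrays (adjusted p = 0.0532). Monocyte arrays enter this comparison only through the estimate of the spread, and without any 1 of them the value stayed at 2.99. In Ly6C-low microglia S100a4 was 5.23 ± 0.84 log2 units below monocytes (37.7-fold lower, adjusted p = 0.0036), a call kept without each of the 9 arrays. Ly6C-high microglia against monocytes did not pass (-2.25 ± 0.84, adjusted p = 0.0889), passed without Ly6C-high replicate 2 (-3.08, adjusted p = 0.0172), and was at -1.12 without Ly6C-high replicate 3 (adjusted p = 0.0719). On Ly6C-high replicates 1 to 3 the classical monocyte list mean was 6.55, 9.27 and 5.93, and the neutrophil list mean 6.06, 6.94 and 5.75. The brain endothelium list mean there was 10.4, 10.6 and 10.9. The part of these marker genes in the S100a4 values, or in those of S100a6, S100a10 and S100a11 below, was not tested.

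S100a6, or calcyclin, was named for its rise in growing cells and binds the ubiquitin ligase adaptor Cacybp. It had 8.68, 12.18 and 9.46 in Ly6C-high, 7.87, 6.71 and 8.36 in Ly6C-low and 12.47, 12.30 and 12.35 in monocyte arrays. No groups overlapped, and Ly6C-high replicate 2 stood next to the monocyte arrays. It was lower in Ly6C-low microglia than in monocytes (7.65 ± 0.85 against 12.37 ± 0.08, -4.73 ± 0.81, 26.5-fold lower, adjusted p = 0.0050). Between the microglia sorts it missed the threshold (2.46 ± 0.81, adjusted p = 0.0792, 95% interval 0.62 to 4.31). It was called without Ly6C-high replicate 1 (3.17, adjusted p = 0.0344) and under quantile and cyclic loess scaling. The value was 1.43 without Ly6C-high replicate 2 (adjusted p = 0.0634), which was no call. A smaller difference than with all arrays, 1.78, was called (adjusted p = 0.0355) once Ly6C-high replicate 2 and Ly6C-low replicate 3 were both left out. Against monocytes Ly6C-high microglia were at -2.26 ± 0.81 (adjusted p = 0.0792), and at -3.30 without Ly6C-high replicate 2 (adjusted p = 0.0016).

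**Figure D3:**
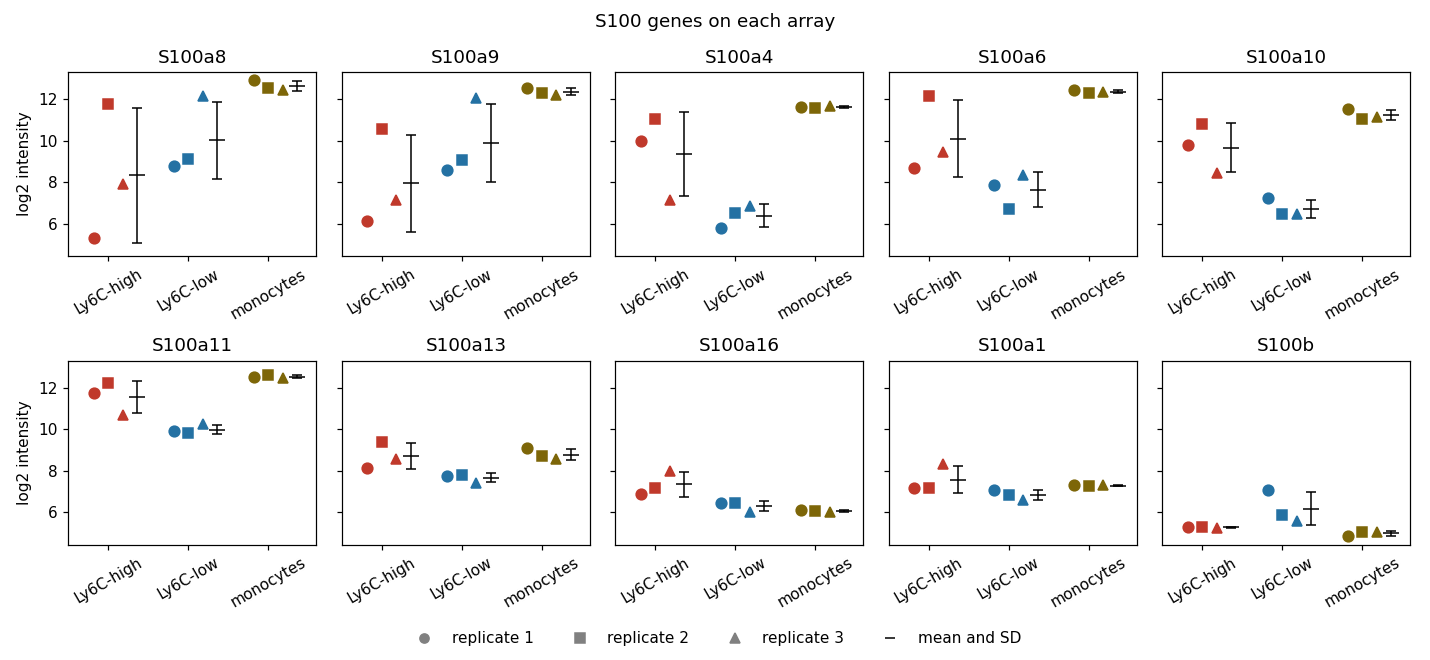
Log2 intensity (y axis) of each S100 gene on the 9 arrays by group (x axis), with the replicate as marker shape and the mean and SD beside it. S100a4, S100a6, S100a10 and S100a11 order the groups as monocytes above Ly6C-high above Ly6C-low with no overlap, and S100a8 and S100a9 overlap between the microglia sorts.

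S100a10 and S100a11, the chromosome 3 pair, are partners of annexins and were, of the 4 called, those whose higher level in Ly6C-high than in Ly6C-low microglia was lost least often when 1 array was left out. S100a10 (p11) binds annexin A2 in a tetramer at the cell membrane and has lost calcium binding. It had 9.78, 10.81 and 8.42 in Ly6C-high, 7.23, 6.47 and 6.47 in Ly6C-low and 11.53, 11.05 and 11.14 in monocyte arrays. The groups did not overlap, and it was higher in Ly6C-high microglia (9.67 ± 1.20 against 6.72 ± 0.44, 2.95 ± 0.52, 7.73-fold, adjusted p = 0.0058), a call kept without each array in turn. Leaving out Ly6C-high replicate 3 moved the value to 3.58, and leaving out Ly6C-high replicate 2 moved it to 2.38 (adjusted p = 0.0061). With Ly6C-high replicate 2 and Ly6C-low replicate 3 both left out it was 2.25 (adjusted p = 0.0262). Ly6C-low microglia were 4.51 ± 0.52 log2 units below monocytes (22.9-fold lower, adjusted p = 0.000648), and Ly6C-high microglia were at -1.56 ± 0.52 (adjusted p = 0.0655), which passed without Ly6C-high replicate 2 (-2.14, adjusted p = 0.0075). That value was -0.94 without Ly6C-high replicate 3 (adjusted p = 0.0974) and -1.02 under cyclic loess scaling (adjusted p = 0.239).

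S100a11, or calgizzarin, binds annexin A1 and had 11.75, 12.24 and 10.70 in Ly6C-high, 9.90, 9.83 and 10.26 in Ly6C-low and 12.54, 12.63 and 12.47 in monocyte arrays, again without overlap. It was higher in Ly6C-high than in Ly6C-low microglia (1.57 ± 0.34, 2.97-fold, adjusted p = 0.0142), and lower in Ly6C-low microglia than in monocytes (-2.55 ± 0.34, 5.86-fold lower, adjusted p = 0.0013). The call between the sorts ended without Ly6C-low replicate 2 (1.48, adjusted p = 0.0590) and when only the 6 arrays of the sorts were fitted (adjusted p = 0.0558). It was kept without Ly6C-high replicate 2, at a value of 1.23 (adjusted p = 0.0218). Ly6C-high microglia against monocytes were at -0.98 ± 0.34 (adjusted p = 0.0714), at -1.32 without Ly6C-high replicate 2 (adjusted p = 0.0128), at -0.55 without Ly6C-high replicate 3 (adjusted p = 0.0778) and at -0.40 under cyclic loess scaling (adjusted p = 0.477). A second, dimmer probe set of S100a11 gave 1.63, -1.24 and -2.87 in the same 3 comparisons. RefSeq lists an S100a11 pseudogene, and the shared sequence that its probes may read was not tested.

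Annexin genes were read beside these members. Anxa2, which encodes annexin A2, had 8.87, 9.28 and 7.61 in Ly6C-high, 5.95, 5.73 and 5.80 in Ly6C-low and 10.21, 9.55 and 9.92 in monocyte arrays. It was higher in Ly6C-high than in Ly6C-low microglia (2.76 ± 0.38, adjusted p = 0.0017) and lower in both sorts than in monocytes (-1.31 ± 0.38 in Ly6C-high, adjusted p = 0.0419, and -4.07 ± 0.38 in Ly6C-low, adjusted p = 0.000202). Anxa1 did not pass between the sorts (0.77 ± 0.81, adjusted p = 0.555) and had 9.48 in Ly6C-high replicate 2 with 6.05 and 7.24 in the others. Of 14 measured binding partners of S100 proteins, 4 were higher and 1 lower in Ly6C-high than in Ly6C-low microglia, 1 higher and 7 lower in Ly6C-high microglia than in monocytes, and 0 higher (0 also at an unadjusted p under 0.05 in limma) and 8 lower in Ly6C-low microglia than in monocytes. Over all 19937 genes, 895 were higher and 2185 lower in the first of these comparisons (15.4% called), 1371 and 2919 in the second (21.5%), and 1356 and 1538 in the third (14.5%). The list's median log2 fold changes were 0.55, -0.95 and -1.64. Between the sorts the higher ones were Anxa2, the plasminogen activator Plat (2.91), the scaffold Iqgap1 (2.66) and the giant membrane scaffold Ahnak (2.50), which binds S100a10, and the lower was the tropomyosin Tpm3 (-0.71). Against monocytes, Ly6C-high microglia were higher in Plat (3.33) and lower most in Anxa1 (-2.96), Anxa6 (-2.49) and the membrane linker Ezr (-2.05). Ly6C-low microglia were lower than monocytes most in Anxa2, Iqgap1 (-3.77), Anxa1 (-3.73) and Ahnak (-3.29).

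S100a13, S100a16 and S100a1 are more widely expressed members, and their values stayed in a narrower range. S100a13 takes part in the export of growth factors that lack a signal peptide. It had 8.14, 9.38 and 8.58 in Ly6C-high, 7.77, 7.81 and 7.43 in Ly6C-low and 9.10, 8.72 and 8.56 in monocyte arrays. It was lower in Ly6C-low microglia than in monocytes (-1.12 ± 0.30, 2.17-fold lower, adjusted p = 0.0377), a call that ended when any of 7 arrays was left out (all Ly6C-low and all monocyte arrays and Ly6C-high replicate 3, adjusted p = 0.0504 to 0.139, log2 fold change -1.24 to -0.97). Without Ly6C-high replicate 3 that value stayed at -1.12. Ly6C-high arrays lay above all Ly6C-low arrays, but the difference just missed the threshold (1.03 ± 0.30, adjusted p = 0.0507). It was called without Ly6C-high replicate 1 (1.31, adjusted p = 0.0162) and under quantile (1.27) and cyclic loess (1.35) scaling. It was at 0.69 without Ly6C-high replicate 2, and at 0.57 (adjusted p = 0.174) with Ly6C-low replicate 3 left out as well.

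S100a16 was the only member called higher in Ly6C-high microglia in both of their comparisons. It had 6.86, 7.19 and 8.01 in Ly6C-high, 6.44, 6.46 and 6.01 in Ly6C-low and 6.12, 6.07 and 6.04 in monocyte arrays, so that all Ly6C-high arrays lay above the 6 others, which overlapped. The log2 fold change was 1.05 ± 0.27 over Ly6C-low microglia (2.07-fold, adjusted p = 0.0310) and 1.28 ± 0.27 over monocytes (2.42-fold, adjusted p = 0.0114). The call over monocytes was kept without each array in turn, and that over Ly6C-low microglia ended when any Ly6C-low or monocyte array was left out (0.90 to 1.13, adjusted p = 0.0533 to 0.119). Without a monocyte array the value over Ly6C-low microglia stayed at 1.05, and only the estimated spread and the adjusted p changed. Brain endothelium genes were also highest in the Ly6C-high arrays, and the pericyte marker Pdgfrb was at 8.84 in Ly6C-high replicate 3, where S100a16 and S100a1 were highest, with 7.09 and 7.02 in replicates 1 and 2. Their part in the S100a16 and S100a1 values was not tested. S100a1, known for its action on calcium handling in heart muscle, had 7.19, 7.19 and 8.34 in Ly6C-high, 7.09, 6.81 and 6.60 in Ly6C-low and 7.30, 7.26 and 7.32 in monocyte arrays and passed in no comparison (0.74 ± 0.29 between the sorts, adjusted p = 0.139, 95% interval 0.07 to 1.41). Without Ly6C-high replicate 3 its value was 0.36 between the sorts, and against monocytes it was -0.10, where all arrays gave 0.28.

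S100b, the astrocyte-associated member, was the only member called higher in Ly6C-low microglia than in monocytes. It had 5.30, 5.30 and 5.23 in Ly6C-high, 7.07, 5.87 and 5.58 in Ly6C-low and 4.85, 5.06 and 5.07 in monocyte arrays, with Ly6C-low replicate 1 standing highest. Ly6C-low microglia were above monocytes (6.17 ± 0.79 against 4.99 ± 0.12, 1.18 ± 0.33, 2.27-fold, adjusted p = 0.0455). That call ended when any of 7 arrays (all Ly6C-high and all monocyte arrays and Ly6C-low replicate 2) was left out, at log2 fold changes of 1.11 to 1.33 and adjusted p = 0.0554 to 0.146, and under quantile scaling (adjusted p = 0.0568). Without a Ly6C-high array the value stayed at 1.18, and only the estimated spread and the adjusted p changed. Without Ly6C-low replicate 1 the value was 0.73 (adjusted p = 0.0131). Ly6C-high microglia differed by -0.90 ± 0.33 from Ly6C-low microglia (adjusted p = 0.111; -0.45 without Ly6C-low replicate 1) and by 0.28 ± 0.33 from monocytes (adjusted p = 0.506), neither past the threshold. In Ly6C-low replicate 1 the choroid plexus epithelium list mean (8 genes) was 7.37, with 6.50 and 6.26 in replicates 2 and 3, the astrocyte list mean (10 genes) was 6.19, with 5.93 and 5.79, and the oligodendrocyte list mean (11 genes) was 6.25, with 5.93 and 5.85. On the Ly6C-high arrays, where S100b was at 5.23 to 5.30, the choroid plexus epithelium list mean was 6.27 to 6.65. The astrocyte list mean there was 5.97 to 6.25 and the oligodendrocyte list mean 5.85 to 6.12. The astrocyte marker Gfap stood between 4.85 and 5.13 on all 9 arrays. The part of these cells in the S100b value was not tested.

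No other S100 gene on the array passed the test. Of 6 further family genes (S100a3, S100a5, S100a7a, S100a14, S100g and S100z) none passed limma's test in any of the 3 comparisons, 0 also at an unadjusted p under 0.05. Of all genes 15.4%, 21.5% and 14.5% were called in these comparisons, so 0 of 6 is not far from the overall share. The mean level of the 6 genes on an array ran only from 5.16 to 5.37. S100a14, which lies between S100a13 and S100a16, and S100a3, which follows S100a16, had log2 fold changes of 0.05 and 0.14 between the microglia sorts, and S100g, the vitamin D-dependent calbindin, had -0.28 (adjusted p = 0.203). S100a2, added after its values were seen, was at 0.23 (adjusted p = 0.386). Along the cluster, called members stood beside neighbours without a call, but most of the further family genes there were dim. S100a14, S100a3, S100a2 and S100a5 lay below the array's median log2 intensity on each array. For example, S100a3 had 4.69 to 5.16 and S100a5 4.36 to 4.95, where the array medians ran from 5.83 to 5.96. S100a7a lay above the medians, at 6.07 to 6.40. Whether the dim probe sets read any signal was not tested, so their missing calls do not show equal expression.

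**Figure D4:**
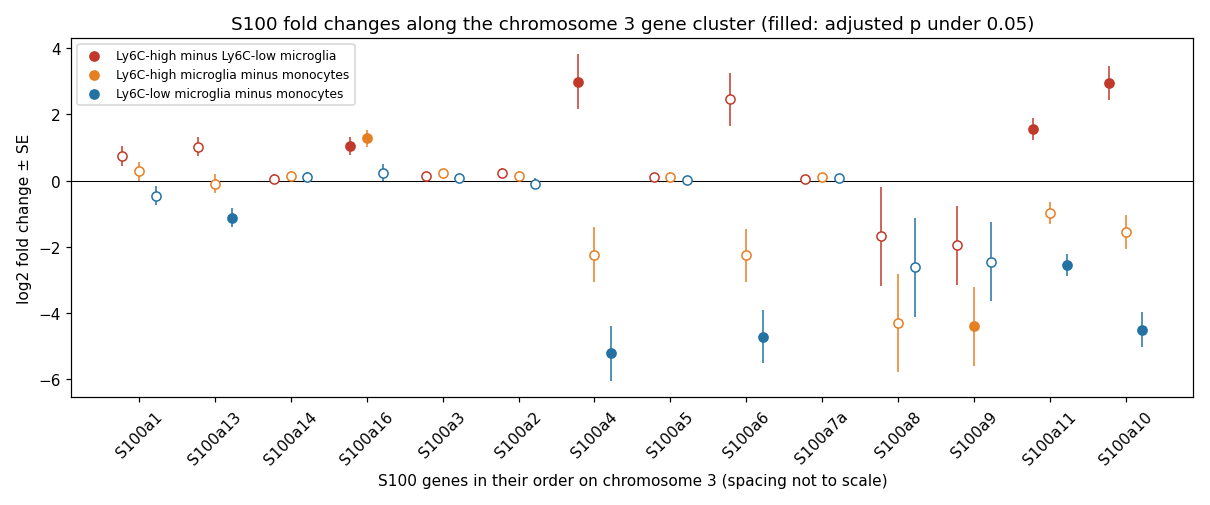
Log2 fold change ± SE (y axis) of the 14 S100 genes of chromosome 3 in chromosomal order (x axis, not to scale) in the 3 comparisons, filled where the adjusted p was under 0.05. S100a14, S100a3, S100a2, S100a5 and S100a7a have no filled point, while S100a4 and S100a6 reach -5.23 and -4.73 in Ly6C-low microglia against monocytes.

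S100 proteins also act on cell-surface receptors. Of 8 measured receptors and co-receptors, 1 was higher and 3 lower than in Ly6C-low microglia, 1 higher and 5 lower than in monocytes, and in Ly6C-low microglia against monocytes 2 were higher and 2 lower. Lower calls also outnumbered higher ones over all genes in both comparisons of the Ly6C-high sort, with 2185 lower and 895 higher of 19937 over Ly6C-low microglia and 2919 lower and 1371 higher over monocytes. For Ly6C-low microglia against monocytes, 6.80% of all genes were called higher and 7.71% lower. The median log2 fold changes of the receptors were -0.70, -1.62 and 0.08. Tlr4, a receptor of S100a8, had 6.37, 6.61 and 6.07 in Ly6C-high, 8.26, 9.33 and 9.06 in Ly6C-low and 8.61, 8.75 and 7.83 in monocyte arrays (Ly6C-high over Ly6C-low -2.53 ± 0.32, adjusted p = 0.0012). Its co-receptor Cd14 (-2.40 ± 0.57, adjusted p = 0.0232) and the lectin Cd33 (-2.87 ± 0.34, adjusted p = 0.000784) were also lower in Ly6C-high than in Ly6C-low microglia. Bsg, the CD147 antigen of brain endothelium that binds S100a9, was higher (1.88 ± 0.18, adjusted p = 0.000247) and stood at 12.18 to 12.72 in Ly6C-high, 10.30 to 10.62 in Ly6C-low and 9.50 to 9.90 in monocyte arrays. Ager, which encodes RAGE, ran only from 6.57 to 7.21 over all arrays and passed in no comparison (adjusted p = 0.846 between the sorts). Compared with monocytes, the Ly6C-high sort was lower in Cd69 (-3.53), Cd36 (-3.41), Cd14 (-2.62) and Tlr4 (-2.05), among others, and higher in Bsg (2.67). Ly6C-low microglia were lower than monocytes in Cd69 (-3.43) and Cd36 (-2.50) and higher in Cd33 (1.68) and Bsg (0.78).

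Where called, other EF-hand genes went both ways between the sorts and were mostly lower in both sorts than in monocytes. Of 18 measured, 2 were higher (the endoplasmic reticulum calcium regulator Sri, 1.43, and the myosin light chain Myl6, 0.86) and 4 lower in Ly6C-high than in Ly6C-low microglia (Efhd2 -2.40, Aif1 -1.84, Ncs1 -0.74 and the calmodulin gene Calm2 -0.52). Aif1 encodes Iba1, a standard microglia marker. Compared with monocytes, the Ly6C-high sort was lower in 4 (Lcp1 -2.96, Efhd2 -2.26, Chp1 -2.05 and Pdcd6 -1.19). It was higher in 0 (1 at an unadjusted p under 0.05 in limma). The 4 of 18 called are near the share of all genes, 21.5%, of which lower calls (14.6%) also outnumbered higher ones (6.88%). Ly6C-low microglia were lower than monocytes in 5, led by Chp1 (-2.31), Hpcal1 (-2.05), Sri (-1.53) and Pdcd6 (-1.13), and higher in 1, Ncs1 (0.80). There 7.71% of all genes were called lower and 6.80% higher. The list's median log2 fold changes were -0.05, -0.83 and -0.61 in the 3 comparisons.

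Genes with the most similar profile were sought for the 7 members that spanned at least 2 log2 units over the 9 arrays, among 3114 genes with such a span outside the family. Pearson's r over n = 9 arrays is a description here, since the arrays fall into 3 groups and share their sources. S100a10 was most like Anxa2 (r = 0.993), its annexin partner, followed by Ifitm2 (0.985) and Vim (0.983), and S100a11 was most like Anxa2 (0.981), the galectin Lgals3 (0.975) and the chemokine receptor Cxcr4 (0.972). S100a4 was most like Serpinb10 (0.980), Cxcr4 (0.970) and Lgals3 (0.968), and S100a6 like Emb (0.990), Lgals3 (0.975) and Prkar2b (0.975). The calprotectin genes had Atg7 in first place (0.975 for S100a8, 0.979 for S100a9), followed by Nifk (0.964) and Cct5 (0.960) for S100a8 and by Cers6 (0.949) and Snrpb2 (0.948) for S100a9. S100b was most like Ski (0.927), Kl (0.921) and Sostdc1 (0.918), which all had their highest value in Ly6C-low replicate 1.

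Between the microglia sorts, 8 of 10 members had no overlap of arrays (7 higher and 1 lower in the Ly6C-high sort), where 30.1% of all genes did not overlap, 12.9% higher and 17.2% lower. For Ly6C-high microglia against monocytes it was 8 of 10 (2 higher and 6 lower), where 45.9% of all genes did not overlap, 24.1% higher and 21.9% lower. For Ly6C-low microglia against monocytes it was 9 of 10 (1 higher and 8 lower), where 42.3% of all genes did not overlap, 23.2% higher and 19.1% lower.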

How the data were processed

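Each array is 1 column of log2 intensities in the table that the authors deposited. The submitters' processing notes name RMA and oligo with no version, and other upstream settings and the annotation's build are not stated in the labels. No value of the deposited log2 scale was missing, with a range of 2.54 to 13.81, and between 0.699% and 4.66% of values were identical between any pair of arrays, so no array was a copy of another. The table holds 34760 probe sets, of which 21640 have 1 gene symbol, 1321 several and 11799 none in the platform annotation used here. RefSeq held the gene ID of 21553 of these and changed 0 symbols, and 954 genes had several probe sets.

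No scaling was added. A limma model (lmFit, eBayes; version 3.58.1, R 4.3.3) with 3 group means was fitted to the 9 arrays, and each adjusted p is from this fit over 19937 genes unless an alternative is named. The fit was also run on simulated data, with groups of equal and of unequal spread. Recovery of added changes was checked for both, but a limit on false calls was set only for equal spreads. The rate of false calls with unequal spreads was therefore not held to a limit. The fit assumes 1 spread per gene in all groups, and the Ly6C-high arrays had the larger one. Alternatives were other scalings, a filter on dim genes, probe set rules, other spread models, replicate blocks and leaving out arrays. Precision is limited by having 3 arrays a group. The members, gene lists and tests were chosen with earlier results of these data known. Named genes were all 10 members, the other S100 genes, up to 4 called genes of each partner list with the largest absolute change, the 3 most similar genes of each member spanning at least 2 log2 units, and the first measured genes of each marker list. S100a2, Ager, Tpm3, Ncs1 and Calm2 are named outside this rule, after their values were seen. List genes without a probe set of a single symbol were not analysed here.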

Additional observations from a re-analysis of the deposited data

How the results depend on the processing

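Of the 30 fold changes (10 S100 genes in 3 comparisons), no called value changed sign under the 21 alternatives tried. For Ly6C-high against Ly6C-low microglia 4 members were called, against 2 with all probe sets tested and 1 with only the 6 arrays compared. For Ly6C-high microglia against monocytes 2 were called, against 6 with only genes at or above the median gene mean (where 37.1% of all genes were called), 1 with all probe sets tested, 1 with array weights per group, and 7 when the arrays that stood apart (replicate 2 of the Ly6C-high sort, replicate 3 of the Ly6C-low sort) were both left out (24.6% of all genes). Leaving out 1 array at a time gave 1 to 5, 1 to 7 and 4 to 5 calls in the 3 comparisons in the order of the report, the 7 without Ly6C-high replicate 2. The share of all genes called ran from 9.81% to 19.5%, 12.6% to 30.6% and 9.35% to 18.9% in these fits. For Ly6C-low microglia against monocytes, 6 members were called (14.5% of all genes) and 4 to 8 under the other settings (9.35% to 26.0% of all genes). The filter on dim genes left S100b out. Apart from the values in the report, calls ended with all probe sets tested for S100a4 and S100a16 between the sorts, S100a9 in Ly6C-high microglia against monocytes and S100a13 and S100b in Ly6C-low microglia against monocytes. With only the 6 arrays compared, calls ended for S100a4, S100a16 and S100b, and S100a1 was called in Ly6C-low microglia against monocytes (adjusted p = 0.0496).

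The replicate number of the titles as a block gave 2 calls between the microglia sorts (14.9% of all genes). It gave 2 for Ly6C-high microglia against monocytes (21.5%) and 5 for Ly6C-low microglia against monocytes (14.0%). Lost were S100a4 (adjusted p = 0.0611) and S100a16 (0.0616) between the sorts and S100b (0.0618) in Ly6C-low microglia against monocytes. Deviations of same-numbered arrays correlated at 0.30, 0.15 and -0.03 between the sorts, at -0.05, 0.04 and 0.05 between Ly6C-high microglia and monocytes, and at 0.01, 0.03 and -0.07 between Ly6C-low microglia and monocytes, so the title numbers were not taken as pairs. The number in the descriptions, whose meaning the labels do not give, as a random replicate block gave 6, 2 and 5 calls. In these fits 19.7%, 21.5% and 14.7% of all genes were called. S100a6 (adjusted p = 0.0441) and S100a13 (0.0336) were called between the sorts, and S100b (0.0512) was lost in Ly6C-low microglia against monocytes. The 2 pairs of arrays that share this number had deviation correlations of 0.30 and 0.21, the highest of all pairs of arrays from different groups.

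Over all genes, 3080 were called between the sorts, with 2038 from the 6 arrays compared, and 2011 or 1956 when replicate 2 or 3 of the Ly6C-low sort was left out. For Ly6C-high microglia against monocytes 4290 were called, with 2505 and 2511 without monocyte replicates 1 and 2. For Ly6C-low microglia against monocytes 2894 were called, with 4614 from the 6 arrays compared, 5175 with array weights and 1864 without monocyte replicate 1. The causes were not tested. With 3 arrays a group, differences near the spread of the Ly6C-high arrays could not be resolved.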
